A study of Mus musculus with 9 samples.

Results

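A group of 10 genes induced by type I interferon was followed in mouse lung: Ifit1, Ifit2, Ifit3, Isg15, Irf7, Mx1, Oasl2, Rsad2, Usp18 and Ifi44. They were taken by symbol, and all 10 were among the 21983 gene symbols of the count table and among the 14739 tested. Type I interferons, the interferon alpha and beta proteins, are released by cells that sense viral or misplaced nucleic acid. They bind the receptor pair IFNAR1 and IFNAR2, and the kinases JAK1 and TYK2 then set off the assembly of a factor called ISGF3, which contains STAT2 and IRF9. ISGF3 binds an interferon-stimulated response element (ISRE) in the promoters of antiviral genes. In lung these genes are known as markers of viral infection, and they are used as a readout of interferon signalling.

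RNA was sequenced from whole lung of BALB/c mice, an inbred strain, in 3 groups of 3 libraries. The asthma group carried a chronic asthma model and received saline by mouth from day 14. The BSYQF group carried the same model and was dosed by mouth from day 14 with the Bu-Shen-Yi-Qi formula, which is made of Chinese herbs, at 20 g of raw herbs per kg of body weight, with 6 weeks of treatment labelled. The control group were normal mice, which also received saline by mouth from day 14. The labels do not name the agent that induced the asthma, the age or the sex, and do not state whether separate mice gave the libraries of a group. The p-values therefore cover the spread from library to library, part of which may be technical. Total counts were 16286385 to 22819199 per library. Lung epithelial markers (Sftpc, Sftpa1, Sftpd, Scgb1a1 and Ager) were abundant in every library, with a summed level of 50299 to 72962 CPM (the counts-per-million unit, scaled by library size) in asthma, 48900 to 73257 CPM in BSYQF and 43092 to 57734 CPM in control. Asthma replicate 2 stood apart in its make-up: the mitochondrial gene mt-Co1 took 4.43% of its counts, against 0.930 to 2.82% in the other 8 libraries. For Ifit1, Ifit2, Isg15, Irf7, Mx1, Rsad2 and Usp18 the asthma against control value without it is given as well.

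Promoters are shown because ISGF3 is known to act through the ISRE, so that the letters of this element can be seen in genes that hold them. Ifit2 is printed as the gene that passed the test. A link between these letters and the level of any gene was not tested. In RefSeq windows on build GRCm38.p6, 8 of the 10 genes had a sequence, in 9 windows. The core of the ISRE was searched as GAAA, any 2 bases and GAAA again (TTTC, 2 bases and TTTC on the other strand) in the 250 bases before the annotated start. It was present in 4 of the 9 windows (44.4%), those of Ifit1, Ifit3, Isg15 and Rsad2, against 978 of 32851 windows of all genes (2.98%). Among 47 windows of other interferon-stimulated genes 16 held it (34%). A match is a string of letters and was not tested as a binding site. The last 160 bases before the start are printed below, 5′ to 3′ in the sense of the gene, with matches in capitals. They lie at chr19:34640729-34640888 on the plus strand for Ifit1, chr19:34583369-34583528 (plus) for Ifit3, chr19:34550534-34550693 (plus) for the upstream start of Ifit2, chr4:156200819-156200978 (minus) for Isg15 and chr12:26456453-26456612 (minus) for Rsad2.
Ifit1: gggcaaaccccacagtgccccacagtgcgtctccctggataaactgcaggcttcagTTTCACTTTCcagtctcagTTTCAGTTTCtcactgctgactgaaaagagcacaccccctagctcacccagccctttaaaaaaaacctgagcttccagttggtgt
Ifit3: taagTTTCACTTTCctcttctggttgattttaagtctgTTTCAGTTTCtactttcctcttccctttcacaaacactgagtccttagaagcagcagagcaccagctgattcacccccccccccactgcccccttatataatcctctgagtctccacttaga
Ifit2: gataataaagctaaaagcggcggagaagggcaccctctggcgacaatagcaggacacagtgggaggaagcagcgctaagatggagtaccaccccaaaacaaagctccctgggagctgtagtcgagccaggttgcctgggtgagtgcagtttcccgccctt
Isg15: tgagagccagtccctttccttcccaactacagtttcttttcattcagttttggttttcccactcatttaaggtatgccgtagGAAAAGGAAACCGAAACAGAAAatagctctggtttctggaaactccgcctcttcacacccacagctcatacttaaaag
Rsad2: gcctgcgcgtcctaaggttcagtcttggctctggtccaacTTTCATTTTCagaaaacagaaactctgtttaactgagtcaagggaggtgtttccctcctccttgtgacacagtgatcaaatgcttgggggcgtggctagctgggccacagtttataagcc
Ifit1 and Ifit3 each held 2 separate matches, beginning 104 and 85 bases before the start in Ifit1 and 156 and 122 bases before it in Ifit3. The capitals of Isg15 are 3 overlapping matches beginning 78, 72 and 66 bases before the start. Both windows of Ifit2 and those of Irf7, Oasl2 and Ifi44 had none, which says only that these letters are not in those windows. For the downstream window of Ifit2, not printed here, the bases after the start were not found in a GENCODE vM21 transcript of the gene.

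The 10 genes did not move as one group in asthmatic lung. In asthma against control, 1 of the 10 passed the test, and it fell: Ifit2. The other 9 genes had log2 fold changes of -0.39 to 1.08 that did not pass. The median log2 fold change of the 10 genes was 0.14, beside 0.02 over all genes tested. Genes were called where edgeR's quasi-likelihood test gave an adjusted p (Benjamini-Hochberg, all 14739 genes) under 0.05. By that rule 12.7% of all genes were called, and 4.45% were called lower, so 1 call among 10 genes is near the background. At an unadjusted p under 0.05 there were 4 of the 10 genes, beside 34.1% of all genes. The groups did not overlap in 2 of the 10 genes, beside 40.4% of all genes.

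**Figure D1:**
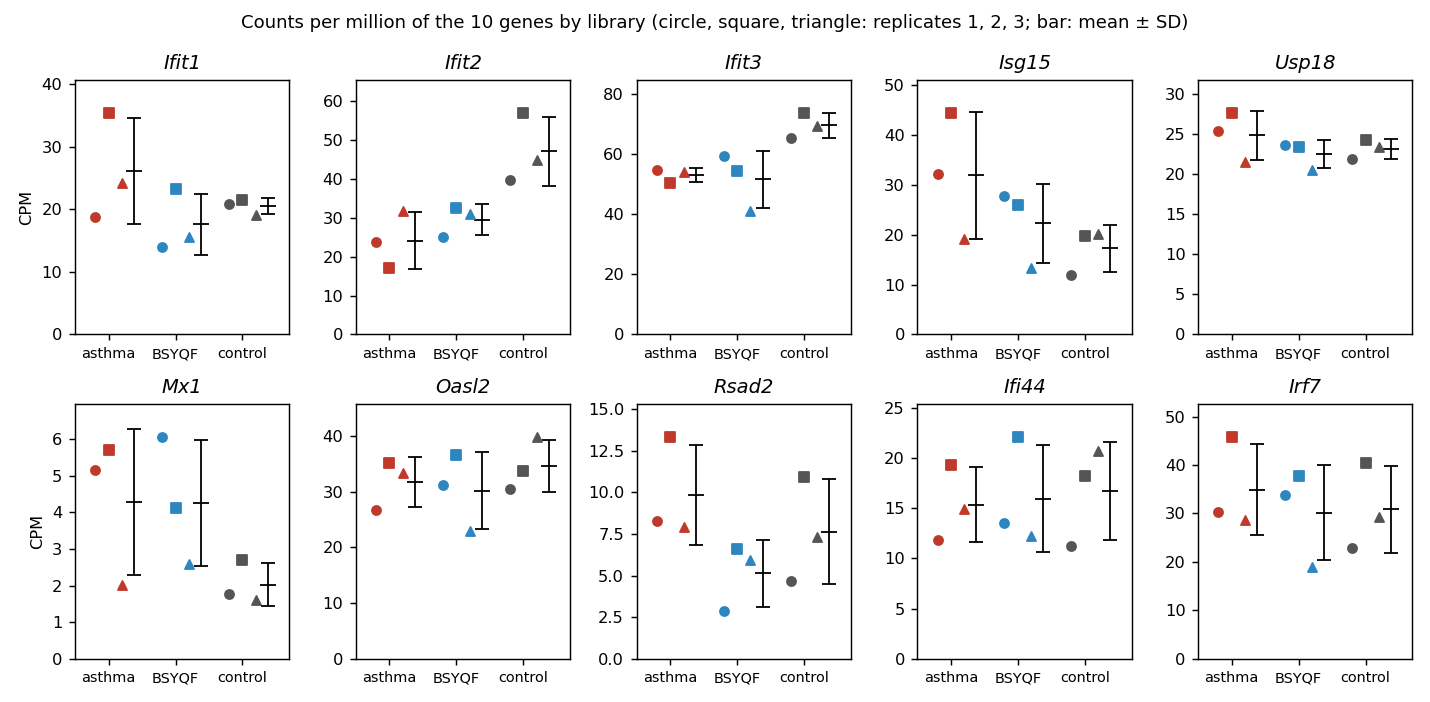
Level in CPM (vertical axis from 0) of each of the 10 genes in the 9 libraries, with asthma left, BSYQF in the middle and control right; symbols mark replicates 1, 2 and 3 and bars the mean ± SD of 3 libraries. Ifit2 and Ifit3 lay lower in all 6 asthma and BSYQF libraries than in the 3 controls, while the groups overlapped in the other 8 genes when asthma and BSYQF were each set against control.

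The Ifit genes encode tetratricopeptide proteins that bind foreign RNA and block its translation. They lie in 1 cluster on chromosome 19 of GRCm38 (mm10), all annotated as protein coding: Ifit2 at chr19:34550694-34576419, Ifit3 at chr19:34583531-34588731, Ifit3b at chr19:34607970-34613401 and Ifit1 at chr19:34640871-34650009, each on the plus strand. Ifit2 was at 23.7, 16.9 and 31.6 CPM in asthma replicates 1, 2 and 3, at 24.9, 32.5 and 30.8 CPM in BSYQF, and at 39.6, 56.9 and 44.8 CPM in control. Every asthma and every BSYQF library was below every control, and asthma replicate 2 was the lowest. Ifit2 fell in asthma to 24.1 ± 7.36 CPM, against 47.1 ± 8.88 CPM in control (SD, n = 3 each), a log2 fold change of -0.96 ± 0.23 (SE) or 0.513-fold (adjusted p = 0.0284 by edgeR's quasi-likelihood test). In BSYQF against control its log2 fold change was -0.68 ± 0.23 and did not pass (adjusted p = 0.184). BSYQF against asthma gave 0.29 ± 0.23 (adjusted p = 0.697).

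The call for Ifit2 was made in all 9 other settings of the fit, and in 4 of the 9 fits that left out 1 library. It was lost without asthma replicate 1 (log2 fold change -0.97, adjusted p = 0.0985) or 2 (-0.78, adjusted p = 0.0961) and without control replicate 1 (-1.07, adjusted p = 0.0527), 2 (-0.80, adjusted p = 0.118) or 3 (-0.997, adjusted p = 0.0648). Leaving out a library thus kept the direction and, in these 5 fits, lost the call. The call stayed without asthma replicate 3 and in the fits without a BSYQF library, which left both compared groups whole.

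Ifit3, a binding partner of the other IFIT proteins, lay lower in the same libraries by a smaller amount. It was at 55.0, 50.6 and 54.2 CPM in asthma, at 59.6, 54.4 and 41.2 CPM in BSYQF, and at 65.5, 73.8 and 69.6 CPM in control. All 6 libraries of the asthma model were below the 3 controls. The log2 fold change of Ifit3 was -0.39 ± 0.15 in asthma against control (adjusted p = 0.100045) and -0.43 ± 0.15 in BSYQF against control (adjusted p = 0.202), and neither passed. Its neighbour Ifit3b, a close copy outside the group of 10, fell in asthma to 20.7 ± 3.67 CPM, against 35.2 ± 6.67 CPM in control (log2 fold change -0.76 ± 0.20, adjusted p = 0.0377). How the deposited counts treat reads shared by Ifit3 and Ifit3b is not stated, so the split between these copies is uncertain.

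Ifit1, which recognises RNA without the cap modification of the host, showed no such pattern. It was at 18.8, 35.4 and 24.3 CPM in asthma, at 14.0, 23.2 and 15.6 CPM in BSYQF, and at 20.9, 21.5 and 19.1 CPM in control. The controls lay close together, and asthma replicate 2 was the highest library. The log2 fold change of Ifit1 was 0.35 ± 0.25 in asthma against control (adjusted p = 0.344), and 0.06 without asthma replicate 2 (adjusted p = 0.913).

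Isg15 and Usp18 act as a pair: ISG15 is a ubiquitin-like protein that is attached to other proteins, and USP18 removes it and also restrains signalling at the interferon receptor. Isg15 lies at chr4:156199424-156200818 on the minus strand and Usp18 at chr6:121245906-121270917 on the plus strand, where it overlaps the non-coding gene Gm44148 on the other strand. Isg15 was at 32.1, 44.4 and 19.1 CPM in asthma, at 27.7, 25.97 and 13.3 CPM in BSYQF, and at 11.8, 19.8 and 20.2 CPM in control. Asthma replicates 1 and 2 were the highest of the 9 libraries, while asthma replicate 3 lay among the controls. The mean was 31.9 ± 12.6 CPM in asthma and 17.3 ± 4.70 CPM in control, and the log2 fold change of 0.88 ± 0.35 did not pass (adjusted p = 0.105). Without asthma replicate 2 it was 0.55 (adjusted p = 0.384), and without asthma replicate 3 it was 1.13 and was called (adjusted p = 0.0263), the 1 call for Isg15 in 9 fits without a library. Usp18 varied least of the 10 genes, with 25.4, 27.6 and 21.5 CPM in asthma, 23.6, 23.4 and 20.5 CPM in BSYQF and 21.8, 24.2 and 23.4 CPM in control. Its highest library was 1.35 times its lowest, and its log2 fold change in asthma against control was 0.10 ± 0.16 (adjusted p = 0.675), and -0.0019 without asthma replicate 2.

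Mx1 encodes a dynamin-like GTPase that blocks influenza virus in mice with an intact gene. Most inbred strains, BALB/c among them, carry a defective allele. The gene lies at chr16:97447035-97462907 on the minus strand. Its level was 5.15, 5.71 and 2.02 CPM in asthma, 6.06, 4.12 and 2.60 CPM in BSYQF and 1.78, 2.69 and 1.60 CPM in control. Asthma replicate 3 and BSYQF replicate 3 lay within the range of the controls, and the other 4 libraries of the model lay above it. The log2 fold change of Mx1 was 1.08 ± 0.47 in asthma against control (adjusted p = 0.131) and 1.07 ± 0.47 in BSYQF against control (adjusted p = 0.295), with both comparisons sharing the controls. The asthma against control value was 0.80 without asthma replicate 2 (adjusted p = 0.378). Without asthma replicate 3 it was 1.41 and was called (adjusted p = 0.0294), the 1 call for Mx1 in 9 fits without a library. Mx1 was the 1 gene of the 10 in the authors' deposited tables, whose entries all have an unadjusted p below 0.05 and differ by 1 or more on the log2 scale. The authors' deposited table gives it 1.06 (p = 0.0309, adjusted p = 0.104) in asthma against control, and the authors' deposited table for BSYQF against control gives 1.06 (p = 0.0172, adjusted p = 0.132).

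**Figure D2:**
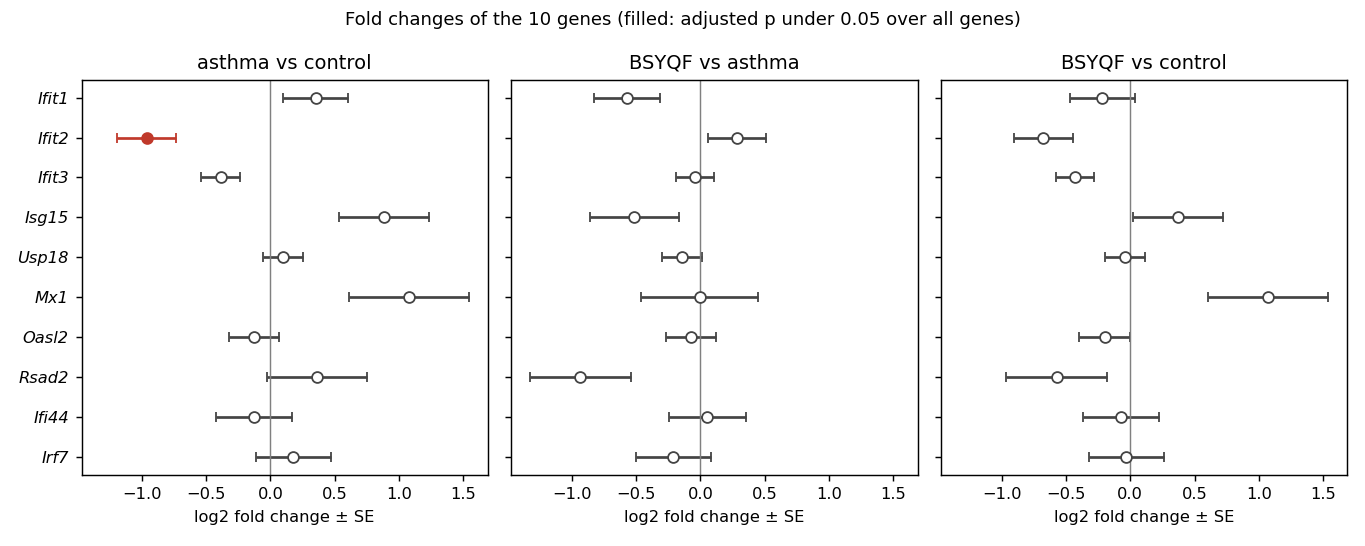
Log2 fold change (horizontal axis, point) and its SE (bar) of the 10 genes in 3 comparisons of 3 libraries each, by edgeR's quasi-likelihood test; a filled point is called over all genes. Ifit2 in asthma against control, at -0.96, is the 1 filled point among 30, and Isg15 and Mx1 lie farthest to the other side in that panel.

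Rsad2, or viperin, an enzyme that makes a nucleotide that stops viral RNA synthesis, lies at chr12:26442746-26456452 on the minus strand. It was at 8.26, 13.3 and 7.93 CPM in asthma, at 2.85, 6.62 and 5.93 CPM in BSYQF, and at 4.65, 10.9 and 7.34 CPM in control. The BSYQF libraries all lay below the asthma libraries, and the controls spanned much of both groups. The mean was 5.13 ± 2.01 CPM in BSYQF and 9.84 ± 3.01 CPM in asthma, and the log2 fold change of -0.93 ± 0.39 did not pass (adjusted p = 0.616). In asthma against control it was 0.36 ± 0.39 (adjusted p = 0.532). Without asthma replicate 2 the log2 fold change of Rsad2 was -0.64 in BSYQF against asthma (adjusted p = 0.994) and 0.06 in asthma against control (adjusted p = 0.942).

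Oasl2, a relative of the oligoadenylate synthetases (chr5:114896936-114912234, plus strand), and Ifi44 (chr3:151730922-151749960, minus strand) differed little between groups. Oasl2 was at 26.7, 35.2 and 33.3 CPM in asthma, 31.2, 36.5 and 22.8 CPM in BSYQF and 30.5, 33.6 and 39.7 CPM in control. Ifi44 was at 11.8, 19.3 and 15.0 CPM in asthma, 13.6, 22.1 and 12.2 CPM in BSYQF and 11.3, 18.3 and 20.7 CPM in control. All 3 groups overlapped in both genes, with log2 fold changes of -0.13 ± 0.20 for Oasl2 and -0.13 ± 0.30 for Ifi44 in asthma against control (adjusted p = 0.673 and 0.790).

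Irf7, the transcription factor that amplifies interferon alpha production, lies at chr7:141262706-141266481 on the minus strand and overlaps Phrf1 on the other strand. Strand use in the counting is not stated, so reads of such overlapping genes cannot be told apart. Irf7 was at 30.3, 45.7 and 28.7 CPM in asthma, at 33.8, 37.8 and 18.996 CPM in BSYQF, and at 22.8, 40.5 and 29.2 CPM in control. The 3 groups overlapped, with a replicate 2 library the highest in each. The log2 fold change was 0.18 ± 0.29 in asthma against control (adjusted p = 0.689), -0.08 without asthma replicate 2, and -0.03 ± 0.29 in BSYQF against control (adjusted p = 0.968).

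None of the 10 genes passed the test between mice given the formula and untreated asthmatic mice. In BSYQF against asthma, 0 of the 10 passed by edgeR's quasi-likelihood test, where 1 of all 14739 genes (0.00678%) did, and 0 passed by DESeq2 or limma voom. At an unadjusted p under 0.05 there were 2 of the 10, Rsad2 and Ifit1, beside 7.94% of all genes, and both had negative values. For Ifit1 the mean was 17.6 ± 4.93 CPM in BSYQF and 26.2 ± 8.45 CPM in asthma, a log2 fold change of -0.57 ± 0.25 (adjusted p = 0.622), and -0.28 without asthma replicate 2 (adjusted p = 0.994). The groups did not overlap in Rsad2 alone, beside 9.75% of all genes. The median log2 fold change of the 10 genes was -0.11, beside -0.0048 over all genes tested, and the SE of the 10 genes ran up to 0.45 in this comparison.

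In BSYQF against control 0 of the 10 passed by edgeR's quasi-likelihood test, beside 1.67% of all genes, and 0 passed by DESeq2 or limma voom. There were 3 of the 10 at an unadjusted p under 0.05, beside 15.8% of all genes: Ifit2 and Ifit3 with negative values and Mx1 with a positive one. The groups did not overlap in 2 of the 10, Ifit2 and Ifit3, beside 24.8% of all genes. The comparisons of asthma and of BSYQF with control share the control libraries, so their likeness for these genes is no separate result.

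Libraries of the same group differed from one another. Asthma replicate 2 held the highest value of the 9 libraries in 5 of the 10 genes (Ifit1, Isg15, Irf7, Rsad2 and Usp18) and the lowest in 1, Ifit2. BSYQF replicate 3 held the lowest value in 4 genes. Relative to the control mean, the mean log2 CPM of the 10 genes was 0.04, 0.38 and -0.06 in asthma, -0.09, 0.17 and -0.38 in BSYQF, and -0.27, 0.23 and 0.04 in control, each by replicate number. The group means of this measure were 0.12 ± 0.23 in asthma and -0.10 ± 0.28 in BSYQF, with an SD of 0.26 within control (n = 3 each). The SD within each group was larger than the difference of the asthma or the BSYQF mean from control. Without asthma replicate 2, both remaining asthma values of this measure lay within the range of the controls. The summed level of the 10 genes was 256 ± 32.8 CPM in asthma, 229 ± 41.9 CPM in BSYQF and 269 ± 36.2 CPM in control.

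**Figure D3:**
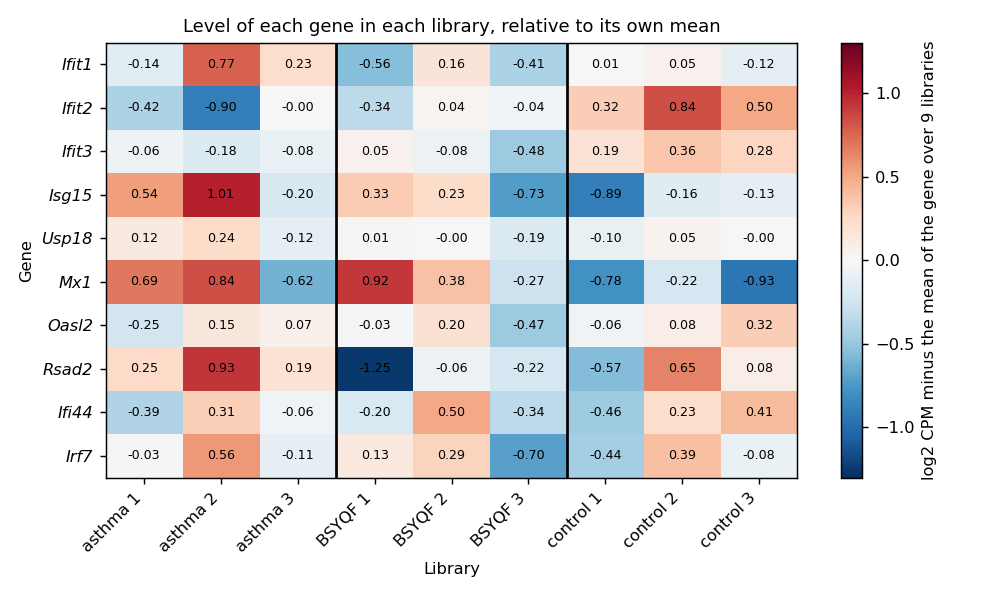
Log2 CPM of each gene (rows) in each library (columns, grouped as asthma, BSYQF and control) minus the mean of that gene over the 9 libraries; red is above and blue below that mean. Asthma replicate 2 is red in most rows and darkest blue in the row of Ifit2 (-0.90), and BSYQF replicate 3 is blue in every row.

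Since Isg15 and Ifit2 lay on opposite sides, the ratio of their CPM was formed within each library, a measure chosen after their values were seen. It was 1.35, 2.62 and 0.605 in asthma, 1.11, 0.798 and 0.431 in BSYQF, and 0.299, 0.348 and 0.450 in control. Every asthma library was above every control, and BSYQF replicate 3 lay within the range of the controls. Ifit2, the divisor, was already lower in every asthma library than in every control, so this separation was partly set in advance. In asthma replicate 3 Isg15 itself was at 19.1 CPM, within the control range of 11.8 to 20.2 CPM.

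Per length of merged exons, as RPKM, which is CPM divided by length in kilobases, formed here with GENCODE vM21 lengths, the order of the genes differed at its top. Isg15 averaged 42.2 ± 16.7 RPKM in asthma and 22.8 ± 6.22 RPKM in control, and Ifit3 30.5 ± 1.33 RPKM in asthma and 39.9 ± 2.39 RPKM in control. Isg15 was thus first in asthma, where its spread covered that of Ifit3, and Ifit3 was first in control, where the 2 genes were apart. In BSYQF they were level, at 29.5 ± 10.4 RPKM for Isg15 and 29.7 ± 5.44 RPKM for Ifit3. Ifit2 stood at place 6 of the 10 in asthma, at 6.14 ± 1.87 RPKM, and at place 3 in control, at 12.0 ± 2.26 RPKM. Usp18, Irf7 and Ifit1 lay between 6.63 and 9.86 RPKM in all groups and did not differ beyond their spread, and Oasl2, Ifi44, Rsad2 and Mx1 came last in that order in every group. Mx1 averaged 1.13 ± 0.526 RPKM in asthma and 0.535 ± 0.155 RPKM in control.

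Around these 10 genes, further lists of the pathway were counted. They were chosen with earlier results of these data known, and counts are set beside the shares of all genes called, 12.7% in asthma against control and 1.67% in BSYQF against control. In asthma against control 22 genes of these lists were called. Without asthma replicates 1, 2 and 3, 1, 2 and 22 of the 22 were called. The count was 22, 10 and 21 without BSYQF replicates 1, 2 and 3, and 5, 3 and 4 without control replicates 1, 2 and 3. Fits without a BSYQF library left both groups of asthma against control whole, so they are a weaker check of its calls. Cxcl9 was the 1 gene called in all 9 fits without a library, and 14 of the 22 were called in all settings with every library. Of 44 other interferon-stimulated genes tested (of 48 listed), 3 rose and 1 fell in asthma, with a median log2 fold change of -0.05. Among those not tested, Oas1a, Oas1g and Slfn8 had 0 counts in every library, as did Ifi47 of the interferon gamma list below. Whether the counting missed these genes was not tested. Ifitm1, which keeps viruses from entering the cell, rose to 96.5 ± 22.3 CPM in asthma, against 45.7 ± 4.74 CPM in control (1.08 ± 0.19, adjusted p = 0.0108). Bst2, or tetherin, which holds budding viruses at the cell surface, rose by 0.89 ± 0.23 (adjusted p = 0.0352) and Epsti1 by 0.77 ± 0.22 (adjusted p = 0.0475). The gene that fell was Ifit3b. Of 9 fits without a library, 7 called Ifitm1, 3 each called Bst2 and Ifit3b, and 2 called Epsti1. Epsti1 was also called in only 3 of 9 other settings (adjusted p up to 0.0637). In BSYQF against control Ifitm1 was the 1 called gene of this list, at 1.35 ± 0.19 (adjusted p = 0.0101), and in BSYQF against asthma 0 were called, where 0 had an unadjusted p under 0.05 by edgeR.

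Transcripts of the interferons were almost absent from the count table. Of 21 interferon genes listed, Ifng was the 1 that could be tested, with 0.648 ± 0.348 CPM in asthma, 0.735 ± 0.376 CPM in BSYQF and 0.762 ± 0.438 CPM in control. Ifnb1, the interferon beta gene, had 0 counts in all 9 libraries, where 3 counts correspond to 0.134 to 0.202 CPM per library. Of the others, Ifna2, Ifna15, Ifnab and Ifnk had a count in 1 or 2 libraries, with at most 6 counts. Whether the counting limited such low values was not tested.

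Of 19 receptor and signal transducer genes 5 rose in asthma and 0 fell (median 0.11). They were the negative regulators Socs1 (1.64 ± 0.47, adjusted p = 0.0462), Socs3 (1.16 ± 0.29, adjusted p = 0.0317) and Ptpn2 (1.01 ± 0.21, adjusted p = 0.0199), and the receptor chains Ifngr2 (0.94 ± 0.20, adjusted p = 0.0210) and Il10rb (0.81 ± 0.24, adjusted p = 0.0480). The groups overlapped in Socs1. Socs1 and Il10rb were each called in 6 of 9 other settings (adjusted p up to 0.0845 and 0.0593) and in 3 of 9 fits without a library. Socs3 and Ptpn2 were called in 5 of these 9 fits and Ifngr2 in 4. Stat2 and Irf9, named here for their role in ISGF3, did not pass, with log2 fold changes of 0.07 ± 0.18 for Stat2 and 0.04 ± 0.14 for Irf9. In BSYQF against asthma 0 of the 19 passed by edgeR's quasi-likelihood test, and 1 had an unadjusted p under 0.05.

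The next list held sensors of nucleic acid, their adaptors, and kinases and transcription factors of interferon induction. Of 22 tested, 7 were called higher and 0 lower in asthma (31.8%, median 0.16), and the difference from other lists was not tested. The groups did not overlap in 13 of the 22, 9 higher and 4 lower, beside 40.4% of all genes. Tmem173, which encodes the DNA-sensing adaptor STING, rose to 54.1 ± 20.8 CPM in asthma, against 18.4 ± 3.13 CPM in control (1.55 ± 0.28, adjusted p = 0.0110). Zbp1, a sensor of Z-form nucleic acid, rose by 1.18 ± 0.30 (adjusted p = 0.0349), Irf5 by 1.13 ± 0.25 (adjusted p = 0.0222) and the endosomal RNA sensor Tlr7 by 0.83 ± 0.21 (adjusted p = 0.0327). Myd88, the adaptor of most Toll-like receptors, rose by 0.71 ± 0.18 (adjusted p = 0.0335), and Unc93b1, which carries such receptors to endosomes, by 0.77 ± 0.21 (adjusted p = 0.0412). Tmem173 was called in 7 of 9 fits without a library, Irf5 in 4, and Zbp1, Tlr7, Myd88 and Unc93b1 in 3 each. The RNA sensors of the cytoplasm Ddx58 and Ifih1, named here for their role, had log2 fold changes of -0.43 ± 0.17 (adjusted p = 0.102) and -0.60 ± 0.27 (adjusted p = 0.145). In BSYQF against asthma 0 of the 22 passed by edgeR, and 1 had an unadjusted p under 0.05, beside 7.94% of all genes. Against control, 0 of the 22 passed in BSYQF by edgeR, and 9 had an unadjusted p under 0.05, beside 15.8% of all genes.

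Genes that respond mainly to interferon gamma differed from one another. Of 33 tested 6 rose and 1 fell in asthma (median 0.11), and Socs1, counted above among the receptor and signal transducer genes, was 1 of the 6. The chemokine Cxcl9, which attracts CXCR3-bearing T cells, was at 10.2, 13.8 and 10.1 CPM in asthma, 21.2, 10.4 and 13.8 CPM in BSYQF and 1.89, 0.643 and 1.33 CPM in control. The asthma and BSYQF libraries all lay above the controls, and Cxcl9 rose in asthma by 3.12 ± 0.39 (adjusted p = 0.00420), a call kept in all 9 fits without a library. Cxcl10, which type I interferon also induces, rose by 2.51 ± 0.50 (adjusted p = 0.0152). Tgtp1, an interferon-induced GTPase gene, rose by 1.07 ± 0.22 (adjusted p = 0.0184), and Cd274, which encodes the T cell inhibitor PD-L1, by 0.84 ± 0.20 (adjusted p = 0.0256). The guanylate-binding protein gene Gbp7 fell by 0.70 ± 0.19 on the log2 scale (adjusted p = 0.0430). Cxcl11 was called higher at 0.896 ± 0.428 CPM in asthma, against 0.0720 ± 0.125 CPM in control (adjusted p = 0.0431), where the control level is below that of 3 counts. Of 9 fits without a library, 5 called Cxcl10, 4 each called Tgtp1, Cd274 and Cxcl11, and 3 called Gbp7. In BSYQF against control 4 of the 33 rose, beside 1.67% of all genes called. They were Cxcl9 (3.54 ± 0.40, adjusted p = 0.00537), Tgtp1 (1.12 ± 0.22, adjusted p = 0.0338), Gbp5 (0.80 ± 0.17, adjusted p = 0.0386) and Cd274 (0.94 ± 0.20, adjusted p = 0.0386). Of 9 fits without a library, 9 called Cxcl9, 3 Tgtp1, 2 Cd274 and 1 Gbp5, and of 9 other settings 6 called Gbp5, 7 Tgtp1 and 8 Cd274. In BSYQF against asthma 0 passed by edgeR and 6 had an unadjusted p under 0.05, beside 7.94% of all genes, with Gbp5 the smallest (0.91 ± 0.17, adjusted p = 0.209) and a median of 0.32. T cell markers were higher in the same comparison. Their summed level was 145 to 207 CPM in BSYQF and 89.99 to 122 CPM in asthma, and the groups did not overlap in 6 of 6 tested markers, beside 9.75% of all genes. Of these T cell markers 4 had an unadjusted p under 0.05 and 0 passed by edgeR. B cell markers had positive values in 6 of 6 (median 0.51) and neutrophil markers in 7 of 9 (median 0.94). NK cell markers had negative values in 5 of 6 (median -0.40). In the B cell, neutrophil and NK cell lists the groups overlapped in every tested marker, and 0 passed. The part of these cells in the values of the interferon gamma list was not tested.

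**Figure D4:**
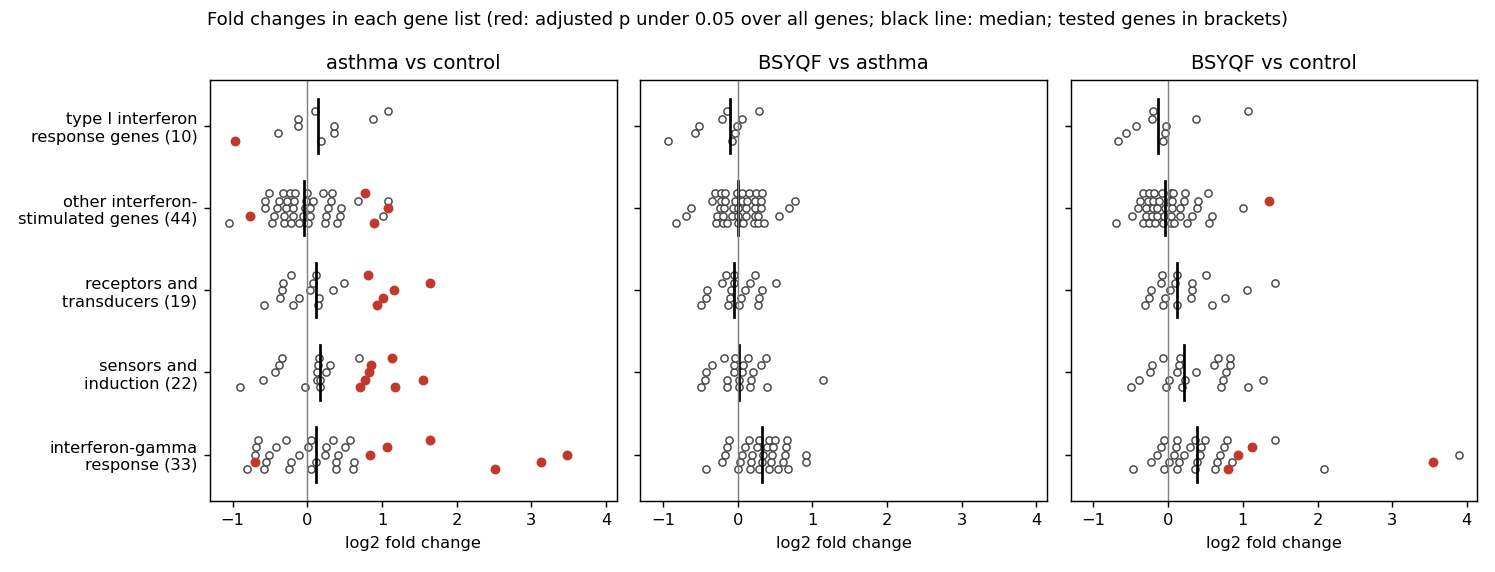
Log2 fold change (horizontal axis) of every tested gene of 5 lists in 3 comparisons of 3 libraries each; red points are called over all genes and black lines are medians. The medians lie between -0.13 and 0.39, and the red points of the sensor, receptor and interferon gamma lists in the left panel lie mostly to the right, with the 1 red point of the 10 genes, Ifit2, to the left.

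Whole lung holds many cell types, and fewer cells of a type and less RNA per cell cannot be told apart in these libraries. Beside the fall of Ifit2, marker lists were counted in asthma against control, where 12.7% of all genes were called and 4.45% were called lower. In lists of this size 1 or 2 calls are near the share of all genes called. Of 8 interstitial macrophage markers 7 rose in asthma, with a summed level of 1331 to 1396 CPM in asthma, 1467 to 2007 CPM in BSYQF and 886 to 1110 CPM in control. Of 7 tested classical monocyte markers 3 rose, and the sum was 1108 to 2945 CPM in asthma, 958 to 5064 CPM in BSYQF and 621 to 888 CPM in control. Of 11 endothelial markers 1 fell, with 2840 to 4880 CPM in asthma, 4167 to 4342 CPM in BSYQF and 4442 to 6181 CPM in control. Of the 11, 10 had negative log2 fold changes in asthma against control (median -0.43). The groups did not overlap in 4, all lower, beside 40.4% of all genes not overlapping in either direction. Plasmacytoid dendritic cells are known as strong producers of interferon alpha, and of their 8 markers 0 passed, with 246 to 318 CPM in asthma, 271 to 316 CPM in BSYQF and 247 to 300.1 CPM in control. Of 6 plasma cell markers 5 rose, with 3349 to 4644 CPM in asthma, 4220 to 4570 CPM in BSYQF and 571 to 756 CPM in control. Of 10 alveolar macrophage markers 2 rose, and the log2 fold changes of the 10 ran from -1.90 to 4.10. Their summed level was 988 to 3034 CPM in asthma, 571 to 5382 CPM in BSYQF and 397 to 449 CPM in control. The marker Chil3 stands in this list and in that of classical monocytes, so the 2 lists are not separate. Of 9 neutrophil markers 1 rose, with 1147 to 2400 CPM in asthma, 607 to 2440 CPM in BSYQF and 267 to 856 CPM in control. Of 6 tested non-classical monocyte markers 1 fell, with 813 to 1616 CPM in asthma, 1216 to 1631 CPM in BSYQF and 1434 to 1907 CPM in control. Of the T, B and NK cell markers 0 passed in asthma against control. The 6 tested NK cell markers all had negative values there (median -0.43) and the 6 B cell markers all had positive ones (median 0.40). Of 6 tested T cell markers 5 were positive (median 0.03). The monocyte markers S100a4 and Treml4 had 0 counts in all 9 libraries. The part of these cells in the result was not tested.

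By the smallest root mean square difference of centred log2 CPM over the 9 libraries, the genes most like the mean of the 10 were Rps6ka4, Clic3, Chsy1, Mocs3, Akr1b10, Btf3l4, Zfp53, Dld, Commd10 and Ogg1 (0.102 to 0.136 on the log2 scale), among 14264 named genes ranked. The mean profile itself spanned 0.757. Irf9 ranked 18 (0.142), and of the other interferon-stimulated genes 1, Xaf1, was among the nearest 100, at rank 88 (0.163). Of the 10 genes Usp18 was the nearest to their mean (0.137), and Mx1 (0.617) and Ifit2 (0.574) were the farthest.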

How the data were processed

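The deposited table holds whole-number counts for each gene symbol and library, not normalized by the authors. Per the submitters' processing notes the build was mm10 and the tools were STAR, HTSeq, cutadapt, FastQC and DESeq2. Versions, strand setting and annotation were not given in the sources used here. Per the labels' protocols, RNA came from Trizol and 3 µg went into NEBNext Ultra libraries. Per the file headers, the deposited tables of 3 comparisons hold p-values, raw and adjusted, and log2 fold changes; their 36 columns per library were not used here.

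Counts of the 9 libraries were filtered with filterByExpr, scaled by TMM (factors 0.914 to 1.07) and fitted in 1 model of 3 groups with edgeR 4.0.16 in R 4.3.3 (glmQLFit, robust, default dispersion method; glmQLFTest), with Benjamini-Hochberg adjustment over 14739 genes. The biological coefficient of variation was 0.244. CPM use TMM-scaled totals, and log2 CPM a prior count of 2. An SE is the log2 fold change divided by the square root of F. The code of the fit was run on counts simulated from the fitted spread of each gene. These held no differences between whole libraries, so the run does not test the fit on the libraries used here. DESeq2 1.42.0 and limma 3.58.1 (voom) were alternatives, with other scalings, filters, fits of the compared groups alone, a replicate block and each library left out. Means are over 3 libraries. Coordinates and lengths are from GENCODE vM21 (GRCm38), 1-based, and promoters from RefSeq. Floors of 3 counts cover counting error only.

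Members and lists were chosen with earlier results of these data known. Named are the 10 genes, of each list up to 6 called genes with the smallest p-values in each comparison (up to 2 with the smallest where none was called) and the 10 genes nearest in profile. Stat2, Irf9, Ddx58, Ifih1, Ifnb1 and Xaf1 were named outside this rule where the text says so or for their role. Oas1a, Oas1g, Slfn8 and Ifi47 were named for their lack of counts.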

Additional observations from a re-analysis of the deposited data

How the results depend on the processing

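Of the 30 fold changes of the 10 genes, 19 kept their sign in all 18 other settings and 11 did not, and none of the 11 had passed the test. In asthma against control 1 of the 10 genes, Ifit2, was called in the 9 settings that kept all libraries, and 0 to 3 were called when 1 library was left out, with 3 (Ifit2, Isg15 and Mx1) without asthma replicate 3. In the other 2 comparisons 0 of the 10 were called in every setting. The mean of the 10 genes per library moved by less than the SD of replicates in 18 of 18 values. A filter at a mean of 1 CPM removed none of the 10 genes and gave no further value.

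Of 22 calls in the other lists in asthma against control, 15 (replicate block) to 22 were called in the settings with every library, and of 5 in BSYQF against control, 2 (limma voom) to 5. Counts of all genes called depended on the tool. In asthma against control DESeq2 called 3315 genes, against 1869 in the fit reported. In BSYQF against asthma DESeq2 called 123, limma voom 0 and a fit of only the 2 groups compared 0, against 1. In BSYQF against control DESeq2 called 826, limma voom 90 and the fit of only the 2 groups 389, against 246. Without 1 library the counts were 171 to 4262 in asthma against control, 0 to 114 in BSYQF against asthma and 9 to 563 in BSYQF against control. In asthma against control they were 171, 248 and 4262 without asthma replicates 1, 2 and 3, 944 without BSYQF replicate 2, and 438, 182 and 357 without control replicates 1, 2 and 3. BSYQF against asthma gave 114 without asthma replicate 3. BSYQF against control gave 563 and 146 without asthma replicates 3 and 1, 135 without BSYQF replicate 2 and fewer without BSYQF replicate 1, and 72, 17 and 9 without control replicates 1, 2 and 3. The cause was not tested.

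With a replicate block 1469 genes were called in asthma against control, where Ifit2 had -0.97 (adjusted p = 0.0343). The block gave 15 in BSYQF against asthma and 237 in BSYQF set against control. The replicate numbers were not taken to pair the samples: over 9 pairs of the same number the deviations from the group means correlated at -0.259 to 0.339, with 2 pairs over 0.1.

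Values near 0 changed sign in BSYQF against asthma. Mx1 (-0.006) was at 0.00104 with RLE size factors, 0.0536 with total counts, 0.0133 with the 1 CPM filter, 0.000461 with DESeq2, 0.104 with limma voom, 0.0100 with the newer dispersion method, 0.0428 with the replicate block and 0.0136 with only the 2 groups. Ifit3 (-0.04) was at 0.0193 with total counts. Without 1 library, the log2 fold change in asthma against control was -0.0813 to 0.423 for Irf7, -0.00194 to 0.180 for Usp18 and -0.344 to 0.0552 for Ifi44. In BSYQF against asthma it was -0.146 to 0.0975 for Ifit3, -0.404 to 0.0368 for Irf7, -0.351 to 0.257 for Mx1, -0.232 to 0.0934 for Oasl2 and -0.252 to 0.258 for Ifi44. In BSYQF against control it was -0.226 to 0.214 for Irf7, -0.0857 to 0.0208 for Usp18 and -0.378 to 0.110 for Ifi44. The cause was not tested. With 3 libraries per group the SE of single genes limits what could be called.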
